A study of Mus musculus with 39 samples.

Results

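The response of mouse bone marrow to 2 hours of reduced oxygen was measured on 7 arrays, 4 from mice under reduced oxygen and 3 from controls, out of 39 arrays in all. The other 32 arrays were from the spleen and the liver, 16 each, of mice under the same 2 conditions. The arrays were chosen by their sample labels alone, which give the tissue, the treatment and the time. All groups were B6C3F1 mice, the first-generation hybrid of C57BL/6 and C3H, and the labels name no transgene or mutation. The treated group is labelled as reduced oxygen, with no oxygen level given, and the control group is titled vehicle, with no substance named. Marrow came from the right humerus of mice killed by cervical dislocation under ketamine and acepromazine anaesthesia, which both groups shared. Age and sex are not given. The labels number the replicates without saying whether each was a separate mouse, so p-values measure the spread between these samples, which may be technical.

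Cells sense low oxygen through prolyl hydroxylases of the Egln family, which need oxygen to mark the HIF alpha subunits for destruction by the von Hippel-Lindau protein. When oxygen falls, HIF-1 alpha and HIF-2 alpha persist, pair with Arnt and switch on genes for glycolysis, vessel growth and mitochondrial turnover. Hypoxia in a whole animal is also a stressor that can raise adrenal glucocorticoids, which enter blood cells, bind the glucocorticoid receptor and induce a well-known gene set that includes Tsc22d3, Fkbp5, Per1 and Zbtb16. Bone marrow is itself a low-oxygen tissue, rich in granulocyte and erythroid precursors.

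The arrays carried the marrow label's markers. Log2 intensity of Mpo, a primary granule enzyme of neutrophil precursors, was between 14.13 and 14.52 in the 7 arrays. Alas2, the erythroid enzyme that starts heme synthesis, was between 13.06 and 13.63, and Cd79a, part of the B cell receptor, between 9.84 and 10.64. The median over the genes tested ranged from 8.35 to 8.46 per array, and correlations between arrays over these genes ranged from 0.981 to 0.997. Control replicate 1 lay farthest from the other arrays on the first principal component, at -21.0 against -11.8 and -9.51 for the other controls and 4.10 to 15.8 for the reduced oxygen arrays. It also had the lowest median, against the control mean, of the B lineage precursor, erythroid and adipocyte lists. The same held for the stromal, monocyte and macrophage, mature B and plasma cell, T and NK cell and endothelial lists.

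Of 12735 genes tested, 979 (7.69%) were called at a Benjamini-Hochberg adjusted p under 0.05 by limma. There were 352 genes that rose (2.76%) and 627 that fell (4.92%). Falls were more numerous but smaller: 33 genes rose at least 2-fold and 6 fell at least 2-fold, while 114 rose and 108 fell at least 1.5-fold. With each array centred on its own median, which moved the median change of all genes from -0.01 to 0.03 on the log2 scale, the split was 514 higher and 492 lower. The 2 groups did not overlap in 2612 genes (20.5%), which included every called gene. The number of calls was 447 without control replicate 2, 650 without control replicate 3, 408 without reduced oxygen replicate 2 and 469 without reduced oxygen replicate 3. It was 310 in 1 fit of all 39 arrays, which shares the spread with spleen and liver, and 58 of the 102 called genes of the naming rule lost their call there.

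**Figure D1:**
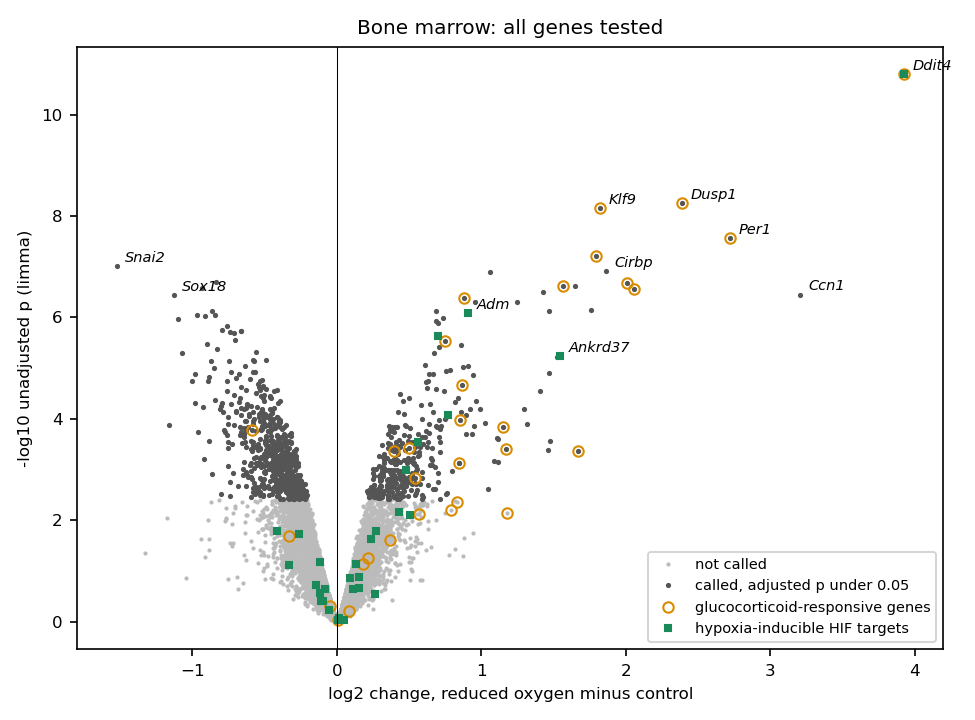
Log2 change (reduced oxygen minus control, x axis) against -log10 of limma's unadjusted p (y axis) for the 12735 genes tested in bone marrow; dark points were called, orange rings are the glucocorticoid-responsive genes and green squares the HIF targets. Most orange rings lie to the right, up to Ddit4 at 3.93, while most green squares lie near 0.

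The largest rise was that of Ddit4, which encodes REDD1, an inhibitor of the growth kinase mTORC1 that both HIF-1 and glucocorticoids are known to induce. Its log2 intensity was 7.34, 7.13 and 7.22 in control replicates 1 to 3 and 11.12, 11.02, 11.34 and 11.15 in reduced oxygen replicates 1 to 4. All 4 reduced oxygen arrays lay far above all 3 controls, and the change was 3.93 ± 0.09 (log2, SE; 15.2-fold, adjusted p = 2.05e-07). Ccn1 (Cyr61), a secreted matrix protein of stromal and endothelial cells and a rapid response gene, followed with 7.28, 7.12 and 6.29 in controls and 10.36, 9.94, 10.28 and 9.85 under reduced oxygen. Its groups were also well apart although control replicate 3 was lower than the other controls, and the change was 3.21 ± 0.23 (adjusted p = 0.000267), with 3.66 at a second probe set.

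The circadian repressor gene Per1, also a direct target of the glucocorticoid receptor and of CREB, read 7.16, 7.00 and 6.74 in controls and 9.45, 9.62, 9.67 and 10.03 under reduced oxygen. The change was 2.72 ± 0.14 (adjusted p = 8.58e-05). Dusp1, a phosphatase that switches off the p38 and JNK kinases, read 9.49, 9.75 and 9.88 in controls and between 11.98 and 12.22 in the 4 reduced oxygen arrays. It was higher in 4 of 4 treated arrays than in any control, by 2.39 ± 0.10 (adjusted p = 2.93e-05). Klf9, a Kruppel-like transcription factor induced by glucocorticoids, read 9.70, 9.37 and 9.49 in controls and 11.32, 11.42, 11.31 and 11.34 under reduced oxygen, a change of 1.82 ± 0.08 (adjusted p = 2.93e-05). The treated values of Klf9 lay within a narrow band, and 5 other probe sets of the gene changed by 0.63 to 1.79.

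The promoters of the 4 genes of smallest adjusted p among the called hypoxia, glucocorticoid and immediate early genes are shown because these genes are among those the results turn on. Each run holds 250 bases before and 50 after a RefSeq transcription start on GRCm38.p6, 5′ to 3′ on the gene's strand, and Per1 has 2 start sites. Capitals mark matches, on either strand, to 7 motifs: ACGTG and GCGTG (cores of the hypoxia response element), ACANNNTGT (core of the glucocorticoid response element), TGACGTCA (cAMP response element), TGANTCA (AP-1 site), CACGTG (E-box, which holds ACGTG on both strands) and TTATGNAA (D-box). Ddit4 lies at chr10:59951721-59952020 (minus strand), Dusp1 at chr17:26508423-26508722 (minus), Klf9 at chr19:23140976-23141275 (plus), and Per1 at chr11:69098699-69098998 and chr11:69099902-69100201 (plus).
Ddit4: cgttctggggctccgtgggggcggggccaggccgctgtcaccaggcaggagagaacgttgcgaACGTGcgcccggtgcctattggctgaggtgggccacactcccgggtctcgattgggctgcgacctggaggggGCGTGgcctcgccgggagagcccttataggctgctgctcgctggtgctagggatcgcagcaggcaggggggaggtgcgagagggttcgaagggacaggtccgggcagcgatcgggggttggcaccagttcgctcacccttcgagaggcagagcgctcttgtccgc
Dusp1: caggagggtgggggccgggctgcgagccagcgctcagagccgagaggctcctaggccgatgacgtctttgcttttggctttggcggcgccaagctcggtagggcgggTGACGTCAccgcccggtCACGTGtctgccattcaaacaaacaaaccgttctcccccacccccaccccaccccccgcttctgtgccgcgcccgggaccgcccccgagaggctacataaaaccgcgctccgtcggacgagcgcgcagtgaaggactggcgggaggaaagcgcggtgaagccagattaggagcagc
Klf9: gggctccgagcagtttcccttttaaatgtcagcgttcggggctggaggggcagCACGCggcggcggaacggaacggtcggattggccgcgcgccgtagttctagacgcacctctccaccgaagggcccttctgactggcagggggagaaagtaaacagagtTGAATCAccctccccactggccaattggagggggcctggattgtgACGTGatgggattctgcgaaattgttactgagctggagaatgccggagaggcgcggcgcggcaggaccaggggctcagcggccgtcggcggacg
Per1 start site 1: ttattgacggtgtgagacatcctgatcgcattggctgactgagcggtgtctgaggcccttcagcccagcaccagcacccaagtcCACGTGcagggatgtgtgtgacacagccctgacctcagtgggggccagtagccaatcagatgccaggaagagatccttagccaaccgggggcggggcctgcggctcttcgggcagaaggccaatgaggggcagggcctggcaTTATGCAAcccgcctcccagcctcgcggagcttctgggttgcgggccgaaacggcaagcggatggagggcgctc
Per1 start site 2: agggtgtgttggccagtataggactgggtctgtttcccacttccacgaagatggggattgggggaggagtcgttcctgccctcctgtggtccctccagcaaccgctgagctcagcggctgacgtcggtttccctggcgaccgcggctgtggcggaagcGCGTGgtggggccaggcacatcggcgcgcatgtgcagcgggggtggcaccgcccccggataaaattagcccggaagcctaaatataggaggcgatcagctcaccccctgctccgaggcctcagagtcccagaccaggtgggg

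Counting from the start site, the Ddit4 run holds ACGTG from base -187 and GCGTG from base -115. The Dusp1 run holds a full cAMP response element from -143 and an E-box from -126, which contains its ACGTG matches. In Klf9 there is GCGTG on the opposite strand from -197, an AP-1 site from -89 and ACGTG from -44. The first Per1 run holds an E-box from -166 and a D-box from -24, 2 elements of clock-controlled promoters, and the second holds GCGTG from -92. None of the 5 runs holds ACANNNTGT. Over all 32851 promoters of the table, 19.6% hold ACGTG, 32.4% GCGTG, 6.85% ACANNNTGT, 1.79% the cAMP response element, 7.81% the AP-1 site, 7.15% the E-box and 3.38% the D-box. Among 36 promoters of the HIF target list, ACGTG was in 66.7%, against 24.7% of the 13113 promoters of genes tested. Among 41 promoters of the glucocorticoid list, ACANNNTGT was in 14.6%, against 4.38% of the 13113. Among 366 promoters of all genes that were called and rose, ACGTG was in 27.6% and ACANNNTGT in 6.01%. Among 658 promoters of called genes that fell, the shares were 22.2% and 4.1%. A match describes the letters in this window and is not a binding site.

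Other large rises were in genes of several functions. Errfi1, an inhibitor of the EGF receptor, rose by 2.05 ± 0.14, and Pik3ip1, an inhibitor of PI3 kinase, by 1.79 ± 0.10. Cirbp, an RNA-binding protein induced by mild cold and by hypoxia, read 8.28, 8.14 and 8.59 in controls and 9.99, 10.23, 10.24 and 10.34 under reduced oxygen, and rose by 1.86 ± 0.12 (adjusted p = 0.000207). H3f3b, a gene for the replication-independent histone variant H3.3, rose by 1.76 ± 0.14 at its brightest probe set that names 1 gene. Arrdc3, an arrestin-related adaptor for receptor trafficking, rose by 1.47 ± 0.16, and Rgs1, which dampens chemokine receptor signalling, by 1.41 ± 0.17. The 2 groups were apart for each of these 6 genes, as for every called gene.

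**Figure D2:**
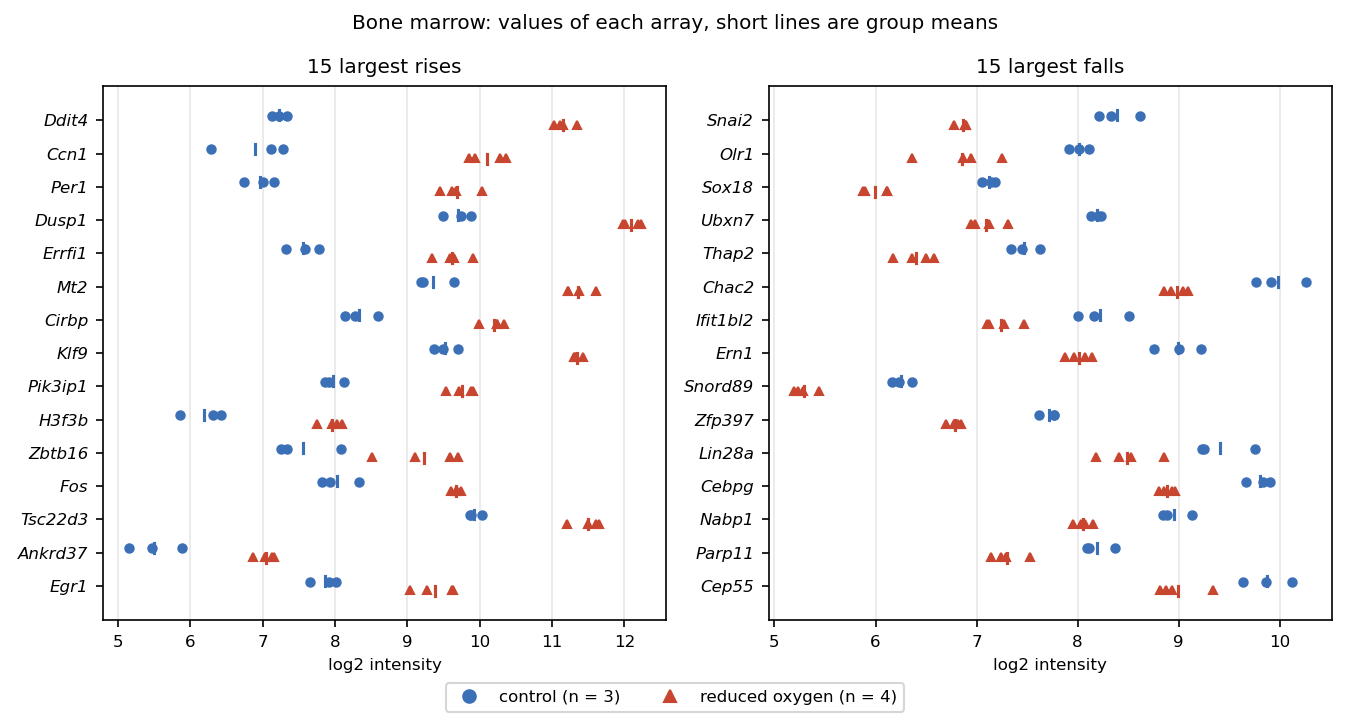
Log2 intensity (x axis) in each bone marrow array for the called genes that rose most and those that fell most (15 each); circles are the 3 controls, triangles the 4 reduced oxygen arrays and short lines the group means. The groups are apart for all 30 genes, as for every called gene, from Ddit4 (up 3.93) to Cep55 (down 0.88).

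Most of the glucocorticoid-responsive genes rose. Of 31 tested, 19 rose, 1 fell and 11 were not called, 64.5% called against 7.69% of all genes, and the median change was 0.85 against -0.01. This list, like the others, was chosen with earlier results of these data known, so its share called is a description and no set test was made. The median of the list, taken in each array against the control mean, was 0.14, -0.07 and -0.01 in the controls and 0.82, 0.80, 0.80 and 0.90 under reduced oxygen. The 4 treated arrays lay close together and above every control. Besides Ddit4, Per1, Dusp1, Klf9, Errfi1 and Pik3ip1, the genes that rose were Mt2, Tsc22d3, Zbtb16, Fkbp5, Mt1, Sgk1, Cdkn1a, Txnip, Il7r, Nfkbia, Sesn1, Irs2 and Cxcr4. Several of these genes are also members of other lists below and are counted again there.

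Tsc22d3 encodes GILZ, a leucine zipper protein that mediates anti-inflammatory effects of glucocorticoids. It read 9.87, 9.87 and 10.03 in controls and 11.20, 11.50, 11.65 and 11.61 under reduced oxygen, a rise of 1.57 ± 0.11 (adjusted p = 0.000252). Fkbp5, a co-chaperone that feeds back on the glucocorticoid receptor, read 10.26, 9.54 and 9.43 in controls and 10.57, 10.89, 11.02 and 11.19 under reduced oxygen. Control replicate 1 was the highest control and lay close to the lowest treated array, and the rise was 1.17 ± 0.21 (adjusted p = 0.0140). Zbtb16 (PLZF), a transcription factor of lymphoid and progenitor cells, also had its highest control in replicate 1, with 8.09, 7.25 and 7.33 in controls and 8.51, 9.11, 9.59 and 9.71 under reduced oxygen (1.67 ± 0.30, adjusted p = 0.0145).

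Sgk1, a kinase that regulates ion transport, read 9.21, 9.38 and 9.41 in controls and 10.18, 10.27, 10.20 and 10.20 under reduced oxygen, with the groups apart by 0.88 ± 0.06 (adjusted p = 0.00029). Txnip, an arrestin that limits glucose uptake, rose by 0.85 ± 0.13, and Cxcr4, the receptor that retains blood cells in marrow through Cxcl12, by 0.40 ± 0.07. Cebpd, a C/EBP factor of the acute phase that glucocorticoids usually induce, fell by 0.59 ± 0.09 (adjusted p = 0.00904). It read 11.23, 10.93 and 11.09 in controls and 10.54, 10.55, 10.31 and 10.59 under reduced oxygen, so the groups did not overlap. Il1r2, the decoy receptor for interleukin-1, was not called (1.18 ± 0.34, adjusted p = 0.0708), and its control replicate 1 at 10.74 lay above the lowest treated array at 10.57.

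Leaving out 1 array ended some of these calls. Fkbp5 lost its call without control replicate 2 (adjusted p = 0.0580), and Zbtb16 without control replicate 2 or 3 (up to 0.0600). Il7r lost it without reduced oxygen replicate 2 (0.0535), while Irs2 (up to 0.0518) and Cxcr4 (up to 0.0551) lost it without control replicate 2 or reduced oxygen replicate 2. Sesn1 lost it without control replicate 2 or reduced oxygen replicate 2, 3 or 4 (up to 0.0834). In 1 fit of all 39 arrays 13 list members were called, and the members that were not were Mt2 (0.116), Mt1 (0.351), Cdkn1a (0.272), Sesn1 (0.171), Irs2 (0.374), Cxcr4 (0.301) and Cebpd (0.0867).

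Textbook HIF targets responded in part. Of 30 tested, 7 rose, none fell and 23 were not called. That is 23.3% called, against 7.69% of all genes, and the median change was 0.12 against -0.01. The 7 were Ddit4, Ankrd37, Adm, Bnip3, Bhlhe40, Pdk1 and Rora, and Ddit4 is also in the glucocorticoid list. Per array, the list's median against the control mean was 0.10, -0.06 and -0.03 in controls and 0.15, 0.10, 0.06 and 0.15 under reduced oxygen, so that control replicate 1 fell among the treated arrays.

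Ankrd37, a small ankyrin repeat protein that is a direct HIF-1 target, read 5.15, 5.48 and 5.89 in controls and 7.14, 6.87, 7.04 and 7.16 under reduced oxygen. All treated arrays were higher, by 1.55 ± 0.16 (adjusted p = 0.00151), although 2 controls lay below the limit for dim genes (5.60 on the log2 scale). Adm encodes adrenomedullin, a vasodilator peptide, and read 5.80, 5.74 and 5.77 in controls and 6.78, 6.55, 6.77 and 6.60 under reduced oxygen (0.91 ± 0.07, adjusted p = 0.000416). Bnip3, which tags mitochondria for autophagy, rose by 0.77 ± 0.11 (adjusted p = 0.00681), and its lowest treated array at 9.22 stood above its highest control at 8.78.

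Bhlhe40 (DEC1), a hypoxia-induced repressor of the clock, rose by 0.70 ± 0.06 (adjusted p = 0.000761). Pdk1, the kinase that closes the entry of pyruvate into mitochondria, rose by 0.56 ± 0.10 (adjusted p = 0.0122), with 0.13 to 0.41 at 2 other probe sets. The nuclear receptor gene Rora rose by 0.48 ± 0.10 (adjusted p = 0.0231), and lost its call without control replicate 2 or reduced oxygen replicate 2, 3 or 4 (up to 0.0705). In the fit of all 39 arrays Bhlhe40 (0.340) and Pdk1 (0.0513) were not called.

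Many of the best-known hypoxia genes were not called. Vegfa, the main driver of vessel growth, read 7.87, 7.63 and 7.51 in controls and 7.87, 7.78, 7.74 and 7.74 under reduced oxygen (0.12 ± 0.09, adjusted p = 0.465), and the groups overlapped. Slc2a1, the glucose transporter GLUT1, read 9.59, 8.76 and 8.57 in controls and 9.34, 9.10 and 9.52 in reduced oxygen replicates 1, 2 and 4, with replicate 3 a little lower (0.27 ± 0.23, adjusted p = 0.522). Control replicate 1 was the highest of the 7 arrays for Slc2a1. The glycolytic enzymes Pgk1 (-0.12 ± 0.10) and Ldha (-0.10 ± 0.11) and the hexokinase Hk2 (-0.41 ± 0.14) had means below the controls.

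The oxygen sensor Egln3 (0.51 ± 0.15, adjusted p = 0.0732) and the lipase inhibitor Angptl4 (0.43 ± 0.12, adjusted p = 0.0700) were higher in mean without passing the test. Hmox1, the heme-degrading enzyme, varied most, from 8.41 to 9.82 in controls and from 7.41 in reduced oxygen replicate 4 to 10.02 in replicate 3. None of the 7 HIF subunits and oxygen sensors tested was called, and their changes ran from -0.06 ± 0.12 for Hif1a to 0.23 ± 0.11 for Hif3a. HIF activity is set mainly at the protein level, which the arrays do not measure.

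Immediate early genes, which are transcribed within minutes of a stimulus without new protein synthesis, moved in both directions. Of 29 tested, 7 rose and 2 fell, 31% called against 7.69% of all genes, with a median of 0.13. The rises were Ccn1, Dusp1, Fos, Egr1, Ccn2, Jun and Nr4a1. Fos, a subunit of AP-1, read 8.33, 7.82 and 7.93 in controls and 9.60, 9.75, 9.69 and 9.67 under reduced oxygen, and rose by 1.65 ± 0.11 (adjusted p = 0.000252). The zinc finger factor Egr1 read 7.65, 7.92 and 8.02 in controls and 9.04, 9.63, 9.62 and 9.27 under reduced oxygen, a rise of 1.53 ± 0.16. Jun, the partner of Fos, rose by 0.91 ± 0.10 (adjusted p = 0.00201).

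Ccn2 (Ctgf), a matrix protein related to Ccn1, read 7.94, 7.95 and 6.88 in controls and 9.23, 8.91, 9.32 and 8.73 under reduced oxygen (1.46 ± 0.26, adjusted p = 0.0142), and control replicate 3 was the lowest array. That array was also the lowest at the brightest probe set of Ccn1, but the highest control at the other (6.16 against 5.85 and 5.44). Ier5, a growth factor response gene, fell by 0.70 ± 0.10 (adjusted p = 0.00645). Zfp36 (tristetraprolin), which destabilises inflammatory mRNAs, fell by 0.36 ± 0.07. Zfp36 lost its call without reduced oxygen replicate 2 or 3 (up to 0.0659), and Nr4a1, an orphan nuclear receptor (0.55 ± 0.11), without any of control replicates 1 and 2 and reduced oxygen replicates 2 to 4 (up to 0.0740). In the fit of all 39 arrays Egr1 (0.0613), Jun (0.108), Nr4a1 (0.116) and Zfp36 (0.633) were not called.

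The list of mTORC1 brakes and insulin signalling genes held 4 that rose (Ddit4, Pik3ip1, Sesn1 and Irs2) and none that fell among 18 tested. All 4 are also in the glucocorticoid list. The share called was 22.2%, against 7.69% of all genes, and the median of the list was 0.18. Sesn1, a stress-induced inhibitor of mTORC1, read 9.89, 10.32 and 10.36 in controls and 10.60, 10.70, 10.87 and 10.76 under reduced oxygen (0.54 ± 0.12, adjusted p = 0.0288). Its relative Sesn2 was not called (0.34 ± 0.11, adjusted p = 0.106). Irs2, an adaptor of the insulin receptor, rose by 0.50 ± 0.09.

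Kruppel-like factors had a median of 0.24, with 4 rises and 1 fall among 14 (35.7% called, against 7.69% of all genes). After Klf9, Klf11 rose by 0.70 ± 0.07 (adjusted p = 0.0011), Klf15 by 0.69 ± 0.05 (0.000394) and Klf10 by 0.37 ± 0.06 (0.00904). Klf15, a regulator of amino acid metabolism that glucocorticoids induce, read 5.94, 5.88 and 5.82 in controls and 6.58, 6.54, 6.56 and 6.60 under reduced oxygen, a small difference with little spread. Klf5 fell by 0.59 ± 0.12, and lost its call without control replicate 1 or 2 or reduced oxygen replicate 2 or 3 (up to 0.0792). In the fit of all 39 arrays Klf11 (0.0590), Klf10 (0.860) and Klf5 (0.123) were not called.

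Of 17 circadian clock genes, 3 rose (Per1, Bhlhe40 and Rora), none fell, and the median was 0.15 (17.6% called, against 7.69% of all genes). Per1 is also in the glucocorticoid list, and Bhlhe40 and Rora are in the HIF target list. Clock (0.26 ± 0.07, adjusted p = 0.0684) and Nr1d2, which encodes REV-ERB beta (0.63 ± 0.21, adjusted p = 0.106), were not called. Among 11 metallothioneins and zinc handling genes, the metal-binding proteins Mt2 and Mt1 rose (18.2% called), and both are also in the glucocorticoid list. Mt2 read 9.65, 9.21 and 9.18 in controls and 11.23, 11.22, 11.37 and 11.61 under reduced oxygen, and rose by 2.01 ± 0.14 (adjusted p = 0.000252). Mt1 rose by 1.15 ± 0.18 (adjusted p = 0.0086), with control replicate 1 at 11.22 above the other controls at 10.47 each.

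Of 15 NF-kappaB regulators 3 rose and none fell (20% called, against 7.69% of all genes), while the median was -0.05. Nfkbia, which encodes the inhibitor I kappa B alpha, read 12.58, 12.46 and 12.56 in controls and 13.38, 13.33, 13.28 and 13.14 under reduced oxygen (0.75 ± 0.07, adjusted p = 0.000923). Birc3, a ubiquitin ligase of the NF-kappaB pathway, rose by 0.67 ± 0.07 (adjusted p = 0.00132). Tnfaip3 (A20), an enzyme that ends NF-kappaB signalling, rose by 0.38 ± 0.09 (adjusted p = 0.0327).

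Bcl3, an I kappa B family member, was lower in mean without a call (-1.17 ± 0.35, adjusted p = 0.0796), and its controls spread from 7.75 to 9.40. Of 29 cytokines, chemokines and receptors 3 rose (Il1r1, Ccl3 and Cxcr4) and 1 fell, with a median of 0.10. The share called was 13.8%, against 7.69% of all genes. The gene of that list that fell was Tnf, which read 7.34, 6.99 and 7.05 in controls and 6.56, 6.71, 6.64 and 6.70 under reduced oxygen (-0.47 ± 0.09, adjusted p = 0.0163). Il1b was not called (-0.77 ± 0.23, adjusted p = 0.0823). Tnf lost its call without reduced oxygen replicate 3 (0.0508). Tnfaip3 lost it without control replicate 2 or any 1 treated array (up to 0.0940), and Ccl3 (0.45 ± 0.11) without any 1 array but reduced oxygen replicate 1 (up to 0.122). Birc3 (0.0801), Tnfaip3 (0.791), Il1r1 (0.448) and Ccl3 (0.133) were not called in the fit of all 39 arrays.

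Interferon-stimulated genes had a median of -0.18. Irf1 fell by 0.40 ± 0.09 (adjusted p = 0.0300), and the other 25 of 26 tested were not called. That is 3.85% called, against 7.69% of all genes, and 6 of the 26 changes were above 0. The transcription factor Stat2 (-0.46 ± 0.13, adjusted p = 0.0716) and the deconjugating enzyme Usp18 (-0.62 ± 0.18, adjusted p = 0.0745) had lower means. Among 15 Socs, Pim and other STAT target genes, Mcl1 and Pim3 rose. Cebpd fell, as did the repressor gene Bcl6 (-0.43 ± 0.08, adjusted p = 0.0142). The share called in this list was 26.7%, with a median of -0.11. Irf1 lost its call without control replicate 2 or 3 or reduced oxygen replicate 1, 2 or 3 (up to 0.0852), Bcl6 without control replicate 2 or reduced oxygen replicate 2 (up to 0.0549), and Pim3 without control replicate 3 or reduced oxygen replicate 3 (up to 0.0519). These 3 genes were not called in the fit of all 39 arrays either (Irf1 0.341, Bcl6 0.943, Pim3 0.577).

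The largest fall was that of Snai2 (Slug), a zinc finger repressor that protects blood progenitors from apoptosis. It read 8.21, 8.61 and 8.33 in controls and 6.89, 6.88, 6.90 and 6.78 under reduced oxygen, with the treated arrays nearly equal, and fell by 1.52 ± 0.09 (2.87-fold, adjusted p = 0.000207). Olr1, a receptor for oxidised lipoprotein, read 8.11, 7.92 and 8.01 in controls and 7.25, 6.86, 6.36 and 6.94 under reduced oxygen (-1.16 ± 0.18, adjusted p = 0.00859). Sox18, a transcription factor of endothelial cells, read 7.05, 7.14 and 7.19 in controls and 5.88, 6.11, 5.89 and 6.12 under reduced oxygen (-1.13 ± 0.08, adjusted p = 0.000267). The groups did not overlap for any of the 3 genes, as for every called gene.

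Other large falls were in genes of several functions. Ubxn7, an adaptor of the p97 segregase that has been tied to HIF-1 alpha turnover, read 8.14, 8.24 and 8.20 in controls and 7.31, 7.12, 6.99 and 6.95 under reduced oxygen (-1.10 ± 0.09, adjusted p = 0.00046). Thap2 fell by 1.07 ± 0.11, and Chac2, an enzyme that breaks down glutathione, by 1.00 ± 0.12. Ifit1bl2, a member of the interferon-induced Ifit family, fell by 0.98 ± 0.13, the small nucleolar RNA gene Snord89 by 0.97 ± 0.08 and the single-stranded DNA binding protein Nabp1 by 0.90 ± 0.09. Lin28a, known for blocking let-7 maturation, fell by 0.92 ± 0.17 and lost its call without reduced oxygen replicate 2 (0.0551). Chac2 (0.284) and Lin28a (0.0898) lost their calls in the fit of all 39 arrays.

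Probe sets of some genes that fell disagreed. Ern1, the endoplasmic reticulum stress sensor IRE1, fell by 0.98 ± 0.11 at its brightest probe set, while 2 others changed by -0.05 and 0.17. Cebpg, a C/EBP partner in the amino acid response, fell by 0.91 ± 0.07, with -0.43 and 0.61 at 2 others. Zfp397 fell by 0.93 ± 0.06, with 0.01 at its other probe set, and Parp11 by 0.89 ± 0.10, with 0.64. Over all called genes, 504 had another probe set above the dim limit, and in 138 of them at least 1 such probe set changed in the opposite direction.

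Of 32 cell cycle and replication genes 5 fell and none rose, which is 15.6% against 4.92% of all genes, with a median of -0.06. The 5 are known for roles in mitosis. Plk1, a kinase of mitotic entry, read 10.48, 10.25 and 10.15 in controls and 9.73, 9.43, 9.38 and 9.44 under reduced oxygen (-0.80 ± 0.11, adjusted p = 0.00521). The spindle kinase Aurka read 10.66, 10.55 and 10.34 in controls and 9.89, 9.79, 9.77 and 9.85 under reduced oxygen (-0.70 ± 0.08, adjusted p = 0.00279). The groups were apart for both kinases, as for every called gene.

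Bub1, of the spindle checkpoint, fell by 0.43 ± 0.09, the anaphase activator Cdc20 by 0.39 ± 0.07 and the cyclin-dependent kinase Cdk1 by 0.39 ± 0.06. Cep55, which acts in the final step of cell division and is in no list, fell by 0.88 ± 0.15. The proliferation marker Mki67 was not called (-0.11 ± 0.06), nor was any of the 6 Mcm helicase genes tested. Bub1 lost its call without control replicate 1 or 2 or reduced oxygen replicate 2, 3 or 4 (up to 0.0874) and Cdc20 without control replicate 2 (0.0502). In the fit of all 39 arrays none of the 5 was called (Plk1 0.169, Aurka 0.518, Bub1 0.811, Cdc20 0.830, Cdk1 0.875).

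Of 22 p53 targets 3 rose (Cdkn1a, Sesn1 and Plk2) and none fell, 13.6% called against 7.69% of all genes, with a median of 0.08. Cdkn1a and Sesn1 are also in the glucocorticoid list. Cdkn1a, the cell cycle inhibitor p21, read 8.91, 8.89 and 8.53 in controls and 9.75, 9.53, 9.58 and 9.73 under reduced oxygen (0.87 ± 0.10, adjusted p = 0.00329). Of 19 genes of the Bcl2 family and apoptosis 3 rose and 2 fell (26.3% called). The pro-apoptotic Bmf read 7.38, 7.80 and 8.05 in controls and 8.65, 8.79, 8.80 and 8.71 under reduced oxygen, and rose by 0.99 ± 0.14 (adjusted p = 0.00595).

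Bcl2l11 (Bim), a pro-apoptotic relative that glucocorticoids induce in lymphocytes, rose by 0.48 ± 0.11, and the survival factor Mcl1 by 0.32 ± 0.07. Casp8 fell by 0.41 ± 0.07 and its inhibitor Cflar by 0.59 ± 0.11. These values are from the brightest probe set. With the mean of each gene's probe sets Mcl1 was at 0.01 and Cflar at -0.08. Bcl2l11, Mcl1 and Cflar all lost their calls in that setting. Without 1 array, Bcl2l11 lost its call for every array but control replicate 3 and reduced oxygen replicate 1 (up to 0.106), Mcl1 for control replicates 2 and 3 and reduced oxygen replicates 1 to 3 (up to 0.0894), Cflar for control replicates 2 and 3 (up to 0.0515), and Plk2 for every array but reduced oxygen replicate 1 (up to 0.0778). In the fit of all 39 arrays Cdkn1a (0.272), Plk2 (0.0519), Bmf (0.0575), Bcl2l11 (0.483), Mcl1 (0.155) and Casp8 (0.0948) were not called.

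Against 7.69% of all genes, no gene of the 2 energy metabolism lists was called. None of 19 glycolysis and glucose transport genes was called (median -0.06), with changes from -0.41 ± 0.14 for Hk2 to 0.34 ± 0.10 for Pfkm. None of 30 oxidative phosphorylation subunits was called (median -0.03), with changes from -0.24 ± 0.10 for Cycs to 0.11 ± 0.06 for Ndufv1. Of 25 genes of the unfolded protein and integrated stress responses Herpud1, a component of endoplasmic reticulum degradation, was the single call (4%), with 9.95, 10.28 and 10.27 in controls and 11.15, 10.96, 11.02 and 10.79 under reduced oxygen (0.82 ± 0.11, adjusted p = 0.00509). The median of that list was -0.14, and 8 of its members were called with the replicate block and 3 without control replicate 3. Ern1, which fell at its brightest probe set, is not in the list.

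Cirbp was the single call among 13 heat shock and cold-inducible genes (7.69%, equal to the share of all genes), whose median was -0.21, and the mitochondrial chaperone Hspd1 was at -0.38 ± 0.13 (adjusted p = 0.120). Among 16 NRF2 targets Nfe2l2, which encodes NRF2 itself, was the single call (6.25%). It fell by 0.31 ± 0.07 at the brightest probe set and changed by 2.33 at another, and the mean of its probe sets gave 1.01. The targets Nqo1 (0.28 ± 0.10, adjusted p = 0.134) and Gclc (0.18 ± 0.07, adjusted p = 0.139) were not called. Ireb2, an iron sensor that binds mRNA, was the single call among 16 iron handling genes (6.25%) and fell by 0.35 ± 0.05. Nfe2l2 lost its call without any 1 control or reduced oxygen replicate 1 or 3 (up to 0.0748). The calls of Nfe2l2 (0.405) and Ireb2 (0.125) were lost in the fit of all 39 arrays.

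Of 12 mRNA decay factors 1 rose and 2 fell (25% called, against 7.69% of all genes). Zfp36l2, which promotes decay of mRNAs with AU-rich elements, read 11.46, 11.34 and 11.70 in controls and 12.27, 12.23, 12.30 and 12.23 under reduced oxygen (0.76 ± 0.08, adjusted p = 0.00232). Its relative Zfp36 fell, as did Tob2 (-0.43 ± 0.10), an antiproliferative protein that recruits deadenylase. Among 12 snoRNA host genes Snhg12 (-0.44 ± 0.08) and Snhg4 (-0.36 ± 0.08) fell (16.7% called). Tob2 lost its call without any 1 array but reduced oxygen replicate 4 (up to 0.0938), and Snhg4 without any 1 array but control replicate 3 (up to 0.108). Also lost, in the fit of all 39 arrays, were the calls of Zfp36l2 (0.155), Tob2 (0.301), Snhg12 (0.0784) and Snhg4 (0.296).

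**Figure D3:**
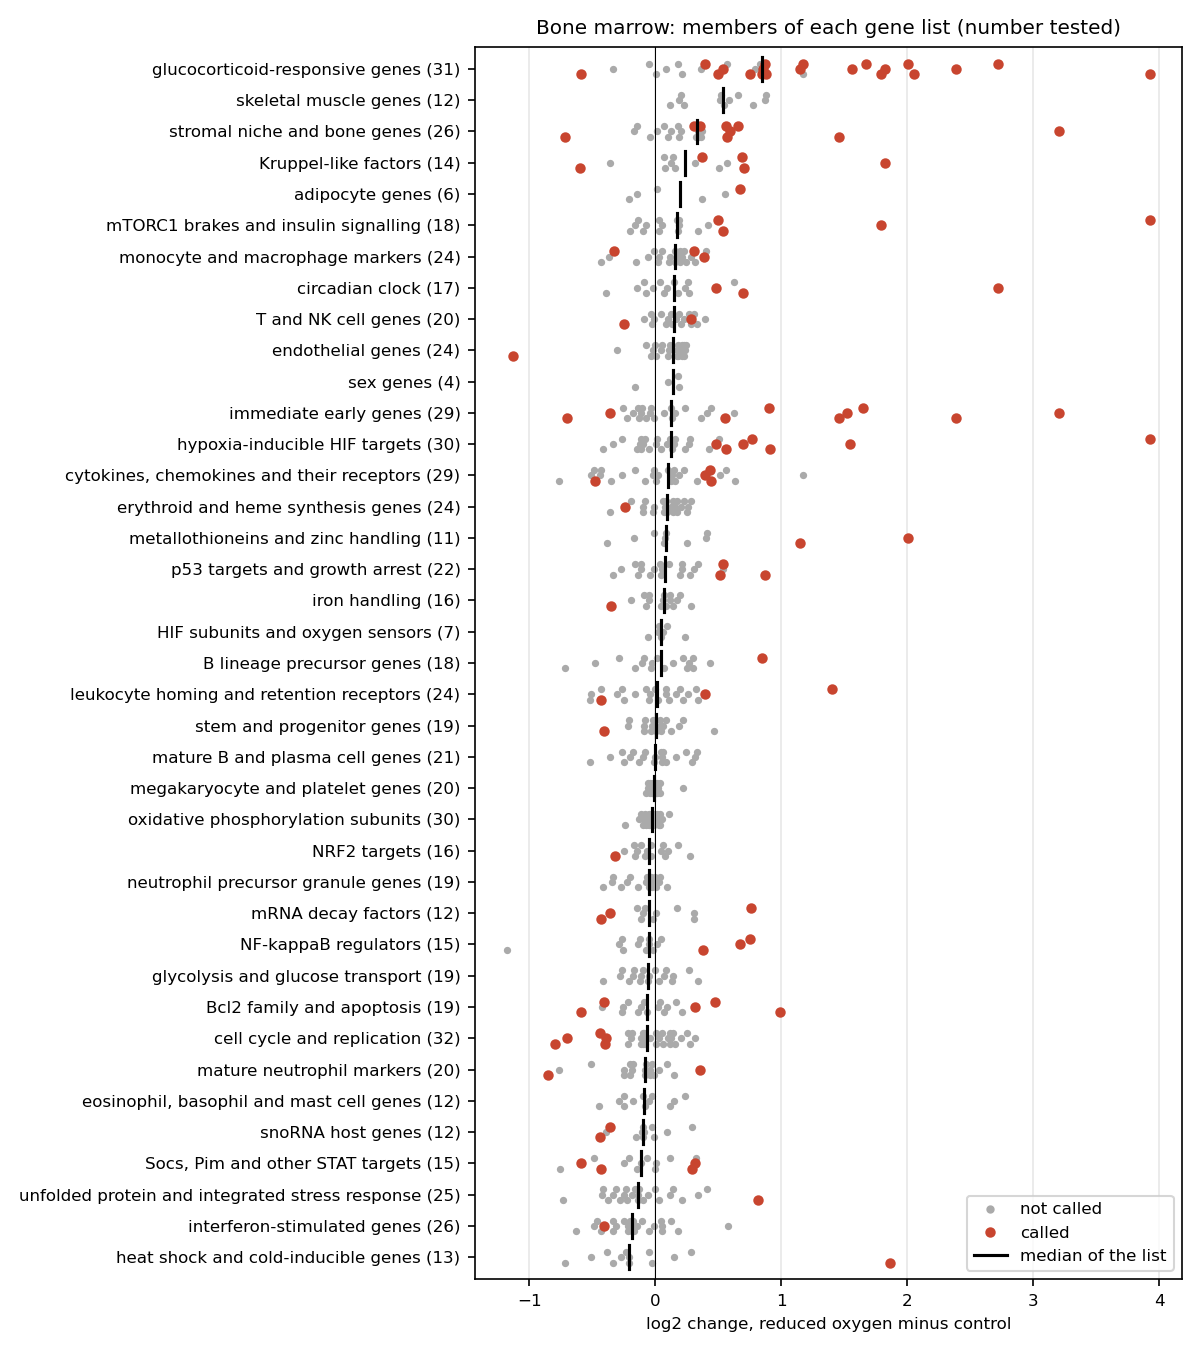
Log2 change (reduced oxygen minus control, x axis) of each tested member of the 39 gene lists (rows, with the number tested); red points were called, grey points were not, and black bars are list medians. Glucocorticoid-responsive genes have the highest median (0.85) and heat shock and cold-inducible genes the lowest (-0.21).

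The blood cell marker lists had shares called from 0 to 12.5%, against 7.69% of all genes. The share was 12.5% of the monocyte and macrophage markers, 10% of the mature neutrophil markers and of the T and NK cell genes, 5.56% of the B lineage precursor genes, 5.26% of the stem and progenitor genes and 4.17% of the erythroid genes. In bulk samples fewer cells of a type and less RNA per cell cannot be told apart. None of 19 neutrophil precursor granule genes was called (median -0.05), with Mpo at -0.06 ± 0.09 and Elane, the neutrophil elastase, at -0.13 ± 0.11. No megakaryocyte and platelet gene of 20 was called (median -0.01), no mature B or plasma cell gene of 21 (median 0.00) and no eosinophil, basophil or mast cell gene of 12 (median -0.09). Of 24 erythroid and heme synthesis genes the transcription factor Nfe2 was the single call (-0.24 ± 0.06), and Alas2 was at 0.14 ± 0.11.

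Among 20 mature neutrophil markers 1 rose and 1 fell. G0s2, an inhibitor of the fat lipase ATGL, read 8.78, 8.56 and 8.59 in controls and 7.70, 7.94, 7.65 and 7.90 under reduced oxygen (-0.85 ± 0.09, adjusted p = 0.0021), while Trem1, an activating receptor, rose by 0.36 ± 0.06. The calgranulin S100a8 was between 15.01 and 15.08 in all 7 arrays, near the top of the scale. Cxcr2, the receptor that draws neutrophils out of marrow, was not called (-0.51 ± 0.17, adjusted p = 0.107), and control replicate 1 at 10.12 was above the other controls at 9.46 and 9.39. Trem1 lost its call without control replicate 2 (0.0502), and neither G0s2 (0.397) nor Trem1 (0.698) was called in the fit of all 39 arrays.

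Il7r, the interleukin-7 receptor chain that B and T lineage cells need and that glucocorticoids induce, was the single call among 18 B lineage precursor genes. It read 9.53, 10.16 and 10.01 in controls and 10.70, 10.65, 11.08 and 10.57 under reduced oxygen (0.85 ± 0.17, adjusted p = 0.0192), and control replicate 1 was the lowest array. Among 20 T and NK cell genes Il2rb rose by 0.29 ± 0.07 and the NK receptor gene Ncr1 fell by 0.25 ± 0.06. Lmo2, a scaffold of the stem cell transcription complex, was the single call among 19 stem and progenitor genes (-0.41 ± 0.07, adjusted p = 0.0120). Il2rb and Ncr1 each lost the call without any 1 array (up to 0.111 and 0.107), and Nfe2 without any 1 array but reduced oxygen replicate 4 (up to 0.115). None of Lmo2 (0.381), Il2rb (0.444), Ncr1 (0.789) and Nfe2 (0.997) was called in the fit of all 39 arrays.

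Of 24 monocyte and macrophage markers the haptoglobin-hemoglobin receptor Cd163 (0.31 ± 0.07) and the engulfment receptor Mertk (0.38 ± 0.09) rose, the Fc receptor Fcgr1 fell (-0.33 ± 0.08) and the median was 0.16. Of 24 homing and retention receptors 12.5% were called, against 7.69% of all genes. Rgs1 and Cxcr4 rose and S1pr4, a sphingosine phosphate receptor, fell (-0.43 ± 0.08, adjusted p = 0.0192). Cxcr4 read 11.70, 11.80 and 11.97 in controls and 12.19, 12.26, 12.25 and 12.19 under reduced oxygen, a small change with the groups apart. Mertk and Fcgr1 lost their calls without any 1 array but reduced oxygen replicate 1 (up to 0.116 and 0.112), Cd163 without any 1 array but reduced oxygen replicate 3 (up to 0.117), and S1pr4 without reduced oxygen replicate 2 or 3 (up to 0.0617). Cd163 (0.861), Mertk (0.219), Fcgr1 (0.749) and S1pr4 (0.165) were not called in the fit of all 39 arrays.

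Stromal and bone genes gave the most calls among the cell type lists. Of 26 tested, 8 rose, 1 fell (34.6% called, against 7.69% of all genes) and the median was 0.33. Per array, the median of the list against the control mean was -0.16, 0.06 and 0.09 in controls and 0.25, 0.29, 0.30 and 0.25 under reduced oxygen, so the groups did not overlap. Besides the rapid response genes Ccn1 and Ccn2, the rises were in matrix proteins: the collagen Col3a1 (0.57 ± 0.10), the bone sialoprotein Ibsp (0.57 ± 0.11), lumican (Lum, 0.66 ± 0.13), decorin (Dcn, 0.59 ± 0.13), Postn (0.36 ± 0.09) and Sparc (0.31 ± 0.07). Col1a1, the chief bone collagen, was not called (0.37 ± 0.10, adjusted p = 0.0637). Mmp13, a collagenase of bone, fell by 0.72 ± 0.15. Of these, Col3a1 (0.474), Lum (0.386), Dcn (0.569), Postn (0.610) and Sparc (0.384) were not called in the fit of all 39 arrays.

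With 1 array left out, Postn lost its call for any array (up to 0.124), and Dcn for each but control replicate 3 and reduced oxygen replicate 4 (up to 0.0909). Lum lost it for control replicates 1 and 2 and reduced oxygen replicates 2 and 3 (up to 0.0702), and Sparc for each but control replicate 1 and reduced oxygen replicate 4 (up to 0.0932). Ibsp lost it for reduced oxygen replicate 3 (0.0508), and Mmp13 for control replicates 2 and 3 and reduced oxygen replicates 2 to 4 (up to 0.0818). Lum read 9.82, 9.80 and 10.16 in controls and 10.66, 10.72, 10.68 and 10.29 under reduced oxygen, and reduced oxygen replicate 4 lay nearest the controls. There were 3 stromal genes called without reduced oxygen replicate 3, 4 without control replicate 2 or reduced oxygen replicate 2, and 6 without control replicate 3 or reduced oxygen replicate 1, against 9 with all arrays. Skeletal muscle genes, which can mark muscle left on the bone, had a higher median than any list but the glucocorticoid list (0.54) without a call among 12. Their median against the control mean was 0.37, 0.13 and -0.52 in controls and 0.33, 0.93, 0.53 and 0.38 under reduced oxygen, with control replicate 3 far below the rest. Acta1, skeletal actin, was 7.93 in that array and between 9.16 and 10.06 in the other 6. The part of muscle or stromal content in the results for Ccn1, Ccn2 and the matrix genes was not tested.

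Of 24 endothelial genes Sox18 fell and none rose (4.17% called, against 7.69% of all genes, median 0.14). The log2 change of the vessel receptor Kdr was 0.00 and that of the junction protein Cdh5 was 0.23, and neither was called. Fabp4, a fatty acid carrier of fat cells, was the single call among 6 adipocyte genes (16.7%), at 0.68 ± 0.16 (adjusted p = 0.0376). It lost the call without control replicate 2 or reduced oxygen replicate 2, 3 or 4 (up to 0.103) and in the fit of all 39 arrays (0.870).

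**Figure D4:**
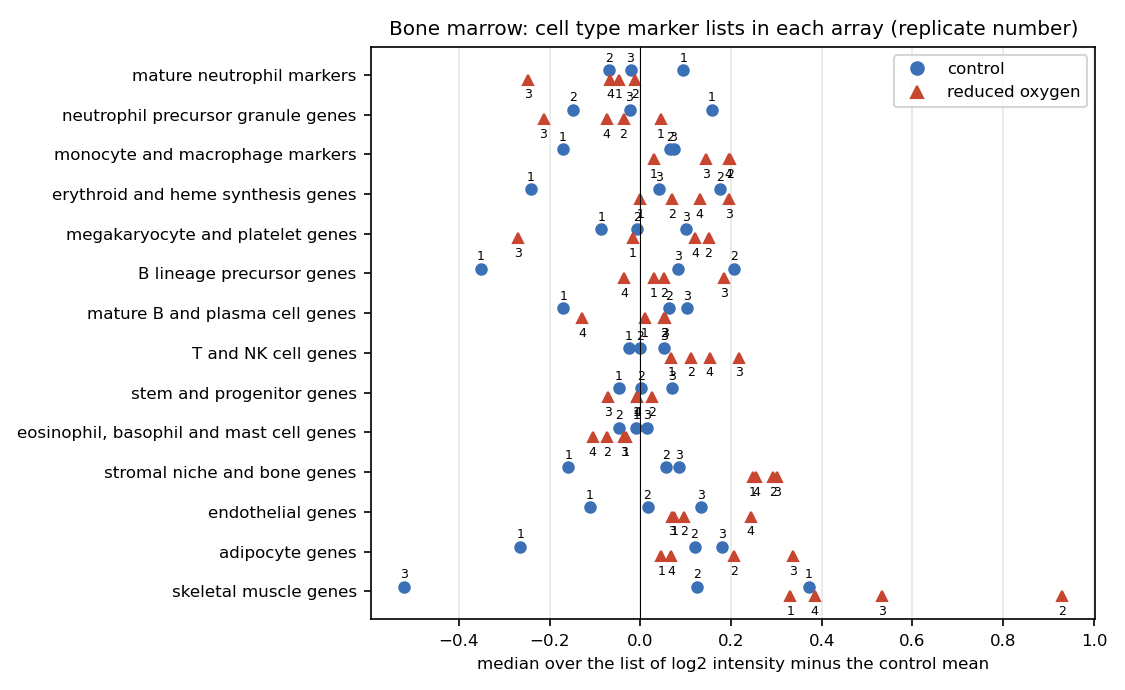
Median over each cell type marker list (rows) of log2 intensity minus the control mean (x axis) in each bone marrow array; circles are controls and triangles reduced oxygen arrays, with the replicate number beside each. The stromal list separates the groups (controls up to 0.09, reduced oxygen from 0.25), while control replicate 3 stands apart for skeletal muscle genes at -0.52.

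Whether the marrow response differed from that of other tissues was tested as an interaction in 1 limma fit of all 39 arrays. The standard errors below come from that fit, and levels were not compared across tissues. Against the spleen, 35 of 12130 genes differed (0.289%), 22 with the marrow change above the spleen change and 13 below. Against the liver, 329 of 11289 genes differed (2.91%), 161 above and 168 below, and 103 of the 329 were called in the marrow itself.

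Ccn1 stood apart from both tissues. Its change was 3.21 ± 0.22 in marrow, 0.30 ± 0.14 in spleen and 0.17 ± 0.14 in liver, and the difference was 2.91 ± 0.26 from spleen (adjusted p = 2.51e-09) and 3.04 ± 0.26 from liver (adjusted p = 9.37e-11). In the spleen its values ran from 6.13 to 6.97 in 8 controls, with a median of 6.49, and from 6.53 to 7.16 in 8 treated arrays, with a median of 6.79, so those groups overlapped. Cebpd went the other way in marrow, with -0.59 ± 0.18 against 1.62 ± 0.12 in spleen and 2.26 ± 0.12 in liver. Its differences were -2.21 ± 0.22 (adjusted p = 1.82e-08) and -2.85 ± 0.22 (adjusted p = 3.3e-12), and in the spleen all 8 treated arrays (9.69 to 10.11) lay above all 8 controls (7.87 to 8.52).

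Ddit4 rose in both marrow (3.93 ± 0.31) and spleen (2.11 ± 0.20), and more in marrow, by 1.82 ± 0.37 (adjusted p = 0.0157). In the liver it rose by 4.84 ± 0.20, and the marrow change did not differ from that (-0.91 ± 0.37, adjusted p = 0.217). The other 4 of the 6 genes of smallest p against the spleen were Neto2, Ifit1bl2, Egr2 and Pex11a. Neto2, an auxiliary subunit of kainate receptors, was at -0.12 ± 0.24 in marrow and 2.09 ± 0.16 in spleen (difference -2.21 ± 0.28, adjusted p = 9.37e-06). Ifit1bl2 was at -0.98 ± 0.11 in marrow and 0.03 ± 0.07 in spleen (adjusted p = 2.03e-05). Egr2, a zinc finger gene of the immediate early list, was at 0.63 ± 0.18 in marrow and -0.84 ± 0.12 in spleen (difference 1.47 ± 0.22, adjusted p = 0.00012). Pex11a, which acts in peroxisome division, was at 0.39 ± 0.17 in marrow and 1.69 ± 0.11 in spleen (difference -1.30 ± 0.20, adjusted p = 0.000221).

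Against the liver, Arrdc3 had the largest difference of the 6 genes of smallest p. It changed by 1.47 ± 0.28 in marrow and by -2.88 ± 0.18 in liver, where 8 controls lay between 10.01 and 11.23 and 8 treated arrays between 7.12 and 8.91 (difference 4.35 ± 0.33, adjusted p = 3.3e-12). Snhg3, a snoRNA host gene, was at -0.02 ± 0.23 in marrow and 3.66 ± 0.15 in liver (difference -3.69 ± 0.28). Slc38a2, an amino acid transporter, was at -0.32 ± 0.14 against 1.84 ± 0.09 (difference -2.15 ± 0.17), and Tcim, a regulator of Wnt signalling, at 0.03 ± 0.19 against 2.47 ± 0.13 (difference -2.45 ± 0.23). The liver groups did not overlap for Snhg3, Slc38a2 or Tcim, which were picked by their small p. In the spleen Arrdc3 changed by 1.64 ± 0.18, Snhg3 by 0.60 ± 0.15, Slc38a2 by -0.21 ± 0.09 and Tcim by -0.65 ± 0.13. None of these genes differed between marrow and spleen in the interaction test (adjusted p from 0.331 to 0.950).

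**Figure D5:**
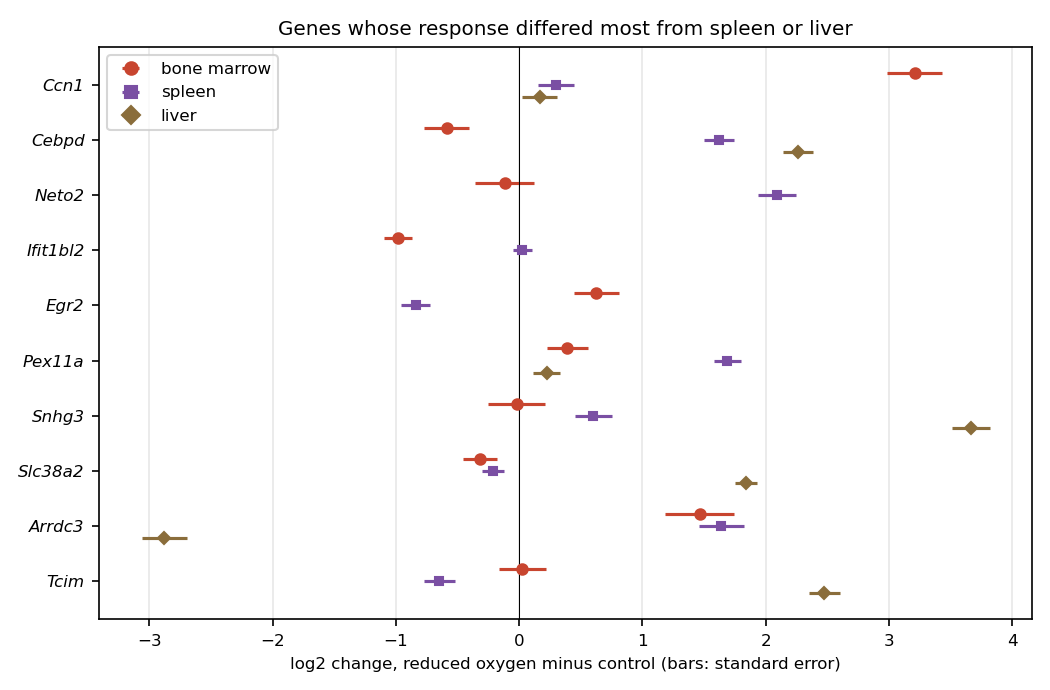
Log2 change (reduced oxygen minus control, x axis, bars are standard errors of the fit of all 39 arrays) in bone marrow, spleen and liver for the 10 genes whose marrow response differed with the smallest p from spleen or liver (6 of each, 2 shared); a tissue in which the gene was not tested has no point. Ccn1 is high in marrow alone, and Cebpd lies below 0 in marrow and above 0 in spleen and liver.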

How the data were processed

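Total RNA of each sample was biotin-labelled with a 1-cycle kit and hybridised to its own Affymetrix array. Per the labels' protocols, a kit for stabilised marrow was used for bone marrow and spin columns for the other tissues. The authors deposited linear intensity values per probe set. RMA (background correction, normalization across arrays, summary of probes) and limma are named without versions in the submitters' processing notes. The array files name no genome build. In marrow the deposited intensities ran from 7.10 to 43830, and 0 value columns were left unused. Arrays give no read depth, and their number limits the precision, with a median standard error of 0.077 per gene on the log2 scale.

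No offset was added before taking log2, so a change is a difference of log2 intensity. Of 45101 probe sets 64 were controls and were left out, 34945 had 1 gene symbol in the platform annotation, 932 several and 9160 none. The gene table of GRCm38.p6 held 34741 of the 34945 and changed 0 symbols. Each of 18193 genes was represented by its probe set of highest mean over the marrow arrays among those named by 1 symbol. Dim genes, under the 30th percentile of the means (5.60), were dropped, and 12735 remained.

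The 7 marrow arrays were fitted by lmFit and eBayes of limma 3.58.1 without covariates, and reduced oxygen was contrasted with control in a two-sided test. R 4.3.3 and the package data.table (version 1.17.8) were used. Benjamini-Hochberg adjustment ran over all genes tested, and calls had adjusted p under 0.05. An exact permutation test of 3 against 4 arrays cannot go below p = 0.0571 for 1 gene, so calls rest on the variance that limma shares across genes. Differences between tissues were interaction contrasts in 1 limma fit of 39 arrays in 6 groups, over genes not dim in both tissues. The script was tested on simulated data.

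The members and lists were chosen with earlier results of these data known. The text names the 15 called genes that rose most and the 15 that fell most, without predicted genes, the called members of 39 lists and up to 5 members of smallest p per list, members of the 2 hypoxia lists, and the 6 genes of smallest p of each tissue difference. Marker genes of the tissue check (Mpo, Elane, Alas2, Cd79a, S100a8), and Col1a1, Acta1, Mki67, Kdr, Cdh5 and Arrdc3 were named beside these. The lists hold 855 entries, of which 784 had a probe set and 751 were tested, 8 of them through an older symbol. Promoters came from the RefSeq promoter table. The labels do not say whether replicate numbers pair the samples, and the fit of the marrow arrays took them as unpaired. The same-number correlations of deviations were mixed, at 0.32, -0.03 and 0.14 against a limit of 0.1, so they do not settle the pairing. Alternatives covered the probe set choice, the dim filter, normalization, the variance prior, the samples fitted, the replicate block and each array left out.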

Additional observations from a re-analysis of the deposited data

Results flagged for a closer look

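Single arrays that lay apart from the other 3 of the reduced oxygen group, by a gap that about 1 in 20 groups shows by chance, were found for 9 of 218 values checked. Arnt read 8.98 in replicate 2 while the other 3 arrays were equal at 8.96, and Tcim read 6.56 in replicate 1 while the others were equal at 6.58, so both gaps are small. Bub1 read 10.36 in replicate 1 against 10.10 to 10.14, and F2r, a thrombin receptor, 9.13 in replicate 3 against 9.49 to 9.55. In replicate 4 Lum read 10.29 against 10.66 to 10.72, and Snai2 read 6.78 against 6.88 to 6.90. Snhg12 read 7.77 in replicate 3 against 8.04 to 8.05. The median of the mRNA decay list against the control mean was 0.012 in replicate 4 and between -0.045 and -0.036 in the others, and that of the endothelial list was 0.24 in replicate 4 against 0.07 to 0.10.

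By the interaction test the marrow response differed from the spleen's in 35 genes and from the liver's in 329, and the 6 genes of smallest p for each tissue are given here. Against the spleen, the marrow change was higher for Ccn1 (2.91) and Egr2 (1.47) and lower for Cebpd (-2.21), Neto2 (-2.21), Pex11a (-1.30) and Ifit1bl2 (-1.01), as log2 differences. Against the liver it was higher for Arrdc3 (4.35) and Ccn1 (3.04) and lower for Snhg3 (-3.69), Cebpd (-2.85), Tcim (-2.45) and Slc38a2 (-2.15).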

How the results depend on the processing

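Both the count of calls and the changes of some genes moved with the settings. Over the settings the change of Ddit4 ran from 3.87 to 3.98. That of Ccn1 ran from 1.32 to 3.40, of Ern1 from -1.10 to -0.22 and of Cebpg from -0.98 to -0.24. In 1 fit of all 39 arrays 310 genes were called (116 higher, 194 lower), of which 272 were among the 979. Leaving out each array in turn gave 408 to 908 calls, 145 to 328 higher, 263 to 580 lower and 5 to 14 at least 2-fold lower (14 without control replicate 3, 10 without reduced oxygen replicate 1). The other settings gave 843 to 1006 calls. The replicate block gave 940 calls (325 higher, 615 lower), of which 699 were among the 979. Whether equal replicate numbers mark paired samples is not given, and 2 of 3 controls correlated best with their own number. Differences from the spleen numbered 290 with array weights by tissue, 60 without the dim filter, 21 with the replicate block and 12 (without control replicate 2) to 32 with 1 marrow array left out, with 13, 14 and 20 without control replicate 1 and reduced oxygen replicates 3 and 4. Differences from the liver numbered 955 with array weights and 174 (without control replicate 1) to 322 with 1 marrow array left out. Of 102 called genes of the naming rule, 34 kept the call in every setting, 60 kept it with each array left out, 58 lost it in the fit of all 39 arrays and 23 lost it in that fit alone. Of 76 that were not called 30 were called in some setting. Among named genes called in the fit of the 7 marrow arrays or in the setting, the 1 change of direction was Nfe2l2. It was at 1.01 with the mean of its probe sets (adjusted p = 0.0016), and the probe sets themselves differ, at -0.31 and 2.33. Some genes without a call also changed sign, among them Hif1a (-0.18 to 0.08 over the settings) and Hmox1 (-0.28 to 0.62). The cause of the other shifts was not tested.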

Other observations

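Some probe sets that were not the brightest of their gene rose far more than the brightest did; these genes were chosen after their values were seen. The other probe set of Nfe2l2 read 5.45, 5.38 and 6.11 in controls and 8.16, 7.79, 7.85 and 8.10 under reduced oxygen, a log2 change of 2.33, while the brightest fell by 0.31. A dimmer probe set of Btg1, an antiproliferative gene that glucocorticoids induce, read 7.44, 7.37 and 7.96 in controls and 9.90, 9.77, 9.85 and 9.81 under reduced oxygen, a change of 2.24, while the brightest was at 0.31 ± 0.09 (adjusted p = 0.0804) and another at 0.27. In both genes all 4 treated arrays lay above all 3 controls at these dimmer probe sets. A dimmer probe set of Cebpg moved from between 7.20 and 7.48 to between 7.88 and 8.03, against the fall of the brightest. No test was made of these differences.

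Zinc finger genes were frequent among the falls, a group also noticed in the data and given no test. Of 244 tested genes whose symbol starts with Zfp and a number, 37 fell (15.2%, against 4.92% of all genes) and 11 rose, and 149 of the 244 changes were below 0, with a median of -0.05. Zfp397 had the largest of these falls among the genes named here.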
